A study of Mus musculus with 40 samples.

Results

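The SMRT and HDAC3 occupancy of mouse liver was compared gene by gene, using the genomic intervals (peaks) at which chromatin immunoprecipitation followed by sequencing (ChIP-seq) found each protein bound. The livers came from ad libitum fed male C57BL/6 mice of genotype Bcl6 fl/fl, which carry loxP-flanked and undeleted alleles of the repressor gene Bcl6 and were the study's controls. Each list stood for 3 libraries that the authors pooled before calling peaks, so it has no value per animal (the age is not given in the sources used here), and 34 of the 40 samples of the series were not used here. The lists held 10654 SMRT and 14462 HDAC3 peaks, all of one length, 212 bp from start to end. Peaks were called co-located where their centres (the midpoints of start and end) lay within 200 bp, and every peak was given to 1 protein-coding gene, the one whose transcription start site (TSS) was closest in mm10. Of 21938 protein-coding genes, 6803 held at least 1 peak. Both proteins were assigned to 4782 genes (21.8% of all genes), HDAC3 without SMRT to 1629 (7.43%), and SMRT without HDAC3 to 392 (1.79%). A gene without a factor is one without a called peak; the lists carry no peak height, so binding under the calling threshold cannot be told apart from none.

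SMRT is a corepressor scaffold that docks on unliganded nuclear receptors and on the zinc finger repressor BCL6. HDAC3 is a histone deacetylase whose activity depends on contact with SMRT or its paralog NCoR, so HDAC3 can reach chromatin with either scaffold. In liver, HDAC3 and its scaffolds are known for the control of lipid and glucose metabolism and of genes with a daily rhythm.

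Base sequence is shown for 2 or 3 peaks of each class, at the leading genes of that class, since the classes differed in base composition and in short motifs. At each gene the peak nearest the TSS that held a motif match and overlapped no annotated untranslated region was taken. Every window therefore holds a motif by selection, and the windows do not show how often a motif or a base composition occurs in a class. Each is the 200 bp motif window around a peak centre, from the plus strand of GRCm38, and capitals mark every match to the 18 motifs searched on both strands. The first set is from HDAC3 peaks of genes that had no SMRT peak. The Ptprj window (chr2:90522605-90522804, intron) holds a RORE (TAGGTCA, bound by ROR and REV-ERB receptors) and a GRE (ACANNNTGT, bound by the glucocorticoid receptor). The Man2a1 window (chr17:64604236-64604435, intron) holds a C/EBP motif (TTNNGCAA).
Ptprj: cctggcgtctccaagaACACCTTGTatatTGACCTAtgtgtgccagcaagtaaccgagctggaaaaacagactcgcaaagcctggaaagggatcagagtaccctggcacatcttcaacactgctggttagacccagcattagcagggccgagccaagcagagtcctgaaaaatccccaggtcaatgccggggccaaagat
Man2a1: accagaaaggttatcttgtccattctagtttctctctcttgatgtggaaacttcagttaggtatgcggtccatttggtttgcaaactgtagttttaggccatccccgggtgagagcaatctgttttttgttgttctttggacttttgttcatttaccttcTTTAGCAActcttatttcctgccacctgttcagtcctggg

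The second set is from SMRT peaks of genes without an HDAC3 peak. The P4hb window (chr11:120571178-120571377, intron) holds a BCL6/STAT motif (TTCNNNGAA) and a C/EBP motif, the Afp window (chr5:90484043-90484242, intergenic) a RORE and a C/EBP motif, and the Per2 window (chr1:91456585-91456784, intron) an SP/KLF motif (GGGCGG).
P4hb: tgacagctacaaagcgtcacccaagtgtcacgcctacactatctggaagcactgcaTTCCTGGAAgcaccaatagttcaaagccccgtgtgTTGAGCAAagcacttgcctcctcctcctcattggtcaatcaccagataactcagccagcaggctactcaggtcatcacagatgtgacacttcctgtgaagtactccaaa
Afp: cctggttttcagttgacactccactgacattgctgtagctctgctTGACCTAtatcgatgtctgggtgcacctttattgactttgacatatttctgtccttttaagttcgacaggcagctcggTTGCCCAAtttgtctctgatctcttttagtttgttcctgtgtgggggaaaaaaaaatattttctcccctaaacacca
Per2: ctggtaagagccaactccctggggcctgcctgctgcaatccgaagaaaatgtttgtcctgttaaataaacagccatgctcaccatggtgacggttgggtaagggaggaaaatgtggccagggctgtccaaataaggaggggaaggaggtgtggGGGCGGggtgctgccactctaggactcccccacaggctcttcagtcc

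The third set is from co-located pairs, centred on the HDAC3 peak, at 3 of the genes with the most pairs. The Pik3r1 window (chr13:101849449-101849648, intergenic) has 34.5% GC and holds a BCL6/STAT and a C/EBP motif, with the SMRT centre 3 bp away. The Tbl1xr1 window (chr3:22076047-22076246, promoter) has 77.5% GC and the Irs2 window (chr8:11009742-11009941) 66.5%, and each holds an SP/KLF motif, with SMRT centres 37 and 45 bp away. The Irs2 peak lies outside Irs2, 1383 bp upstream of its TSS, in an intron of another annotated gene.
Pik3r1: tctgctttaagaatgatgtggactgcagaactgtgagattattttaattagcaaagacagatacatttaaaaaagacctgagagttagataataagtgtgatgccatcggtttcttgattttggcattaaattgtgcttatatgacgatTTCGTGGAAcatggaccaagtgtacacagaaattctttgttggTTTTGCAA
Tbl1xr1: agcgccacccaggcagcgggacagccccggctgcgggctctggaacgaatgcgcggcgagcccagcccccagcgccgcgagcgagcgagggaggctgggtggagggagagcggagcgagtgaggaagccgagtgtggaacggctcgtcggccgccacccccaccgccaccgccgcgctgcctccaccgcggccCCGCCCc
Irs2: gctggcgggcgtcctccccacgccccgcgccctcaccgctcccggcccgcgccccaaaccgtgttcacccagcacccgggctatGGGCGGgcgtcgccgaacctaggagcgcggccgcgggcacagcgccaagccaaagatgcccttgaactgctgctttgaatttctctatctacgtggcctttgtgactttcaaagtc

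The HDAC3 list was the longer, and more of it was unaccompanied. Unaccompanied here means an HDAC3 peak without SMRT, or a SMRT peak without HDAC3, whatever else was bound. NCoR and BCL6 were not considered, and with them the study counted very few SMRT or HDAC3 regions as independent. SMRT was absent within 200 bp of 5636 HDAC3 peaks (39.0%, exact binomial 95% interval 38.2 to 39.8), whereas HDAC3 was absent from 1828 SMRT peaks (17.2%, 16.4 to 17.9). Each list held 8826 paired peaks, so the difference between these shares follows from the lengths of the lists, and it was not compared at matched depth. All such intervals cover counting error only. The 200 bp limit divided few peaks, since 16 pairs had centres 181 to 200 bp apart and 13 SMRT peaks had the nearest HDAC3 centre 201 to 220 bp away. Most unaccompanied peaks lay near genes that held the other protein elsewhere. This was so for 3722 of the HDAC3 peaks (66.0%) and 1413 of the SMRT peaks (77.3%). The nearest peak of the other protein was at a median of 23.2 kb for unaccompanied HDAC3 and 15.6 kb for unaccompanied SMRT, and it was within 1 kb for 5.16% and 9.03%, respectively. On the X chromosome 85 of 177 HDAC3 peaks had SMRT (48.0%, 40.5 to 55.6). The autosomes ranged from 55.8% (52.3 to 59.4, chromosome 7) to 65.5% (62.1 to 68.9, chromosome 3). The X is named as the lowest chromosome, and its interval overlaps that of chromosome 7. These mice were male, and the part of the single X in this share was not tested.

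Most genes with SMRT also had HDAC3. Of 5174 genes with a SMRT peak, 92.4% also had HDAC3, and of 6411 genes with an HDAC3 peak, 74.6% also had SMRT. Both shares count the same 4782 genes, so they differ by the number of genes in each list. Nearly all genes with both (4607, 96.3%) had at least 1 co-located pair, and in the other 175 the proteins were assigned to the same gene at separate positions. Peak numbers were equal in 2560 of the genes with both, HDAC3 peaks were more numerous in 1780 and SMRT peaks in 442. The most peaks of either protein at 1 gene was 23.

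**Figure D1:**
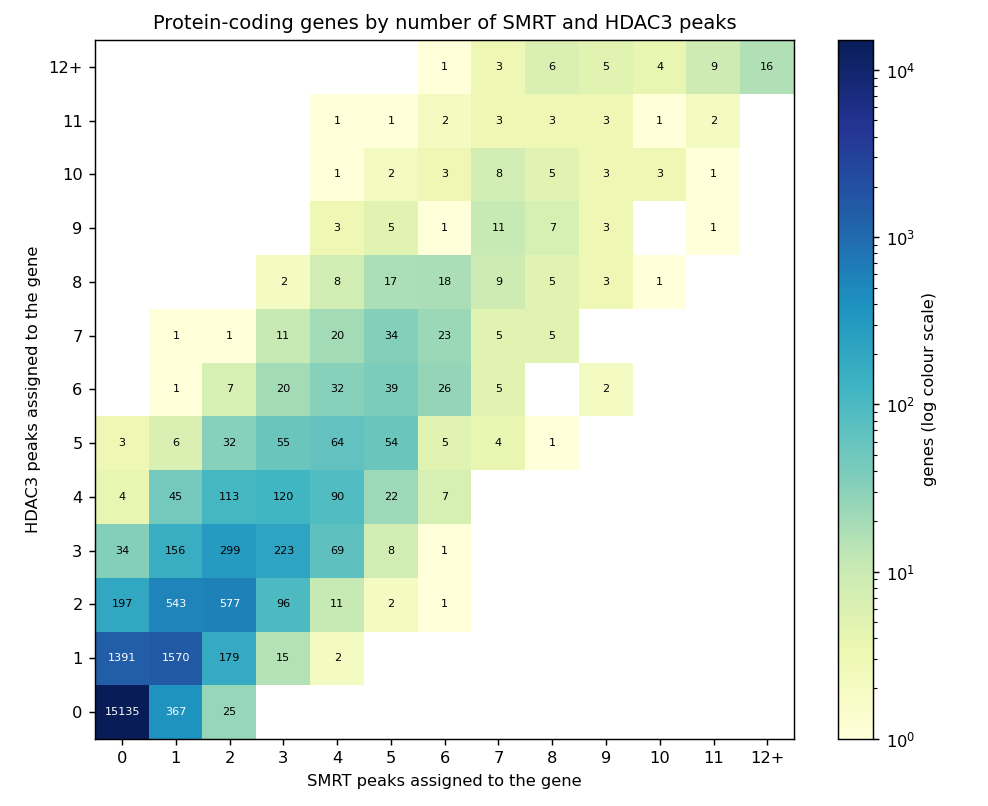
Protein-coding genes by the number of SMRT peaks (x axis) and HDAC3 peaks (y axis) assigned to them, with the number of genes printed in each cell and a log colour scale; the last row and column pool 12 or more. Counts gathered along and above the diagonal, the left column held the 1629 genes with HDAC3 and no SMRT, and the bottom row held the 392 genes with SMRT and no HDAC3, none of which had over 2 peaks.

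Genes with 1 protein mostly had 1 peak. Only 4 peaks of genes with HDAC3 and no SMRT, and 2 of genes with SMRT and no HDAC3, had a partner that was nearest to a different gene. HDAC3 without SMRT was a single peak in 1391 genes (85.4%), 2 peaks in 197 and 3 or more in 41, and SMRT without HDAC3 was a single peak in 367 genes (93.6%) and 2 peaks in 25. The share of genes without SMRT fell as HDAC3 peaks increased, from 44.1% (42.3 to 45.8) of 3157 genes with 1 HDAC3 peak to 13.8% (12.1 to 15.7) of 1427 genes with 2 and 3.19% (2.27 to 4.35) of 1191 genes with 3 or 4. It was 0.545% (0.113 to 1.59) of 550 genes with 5 to 9 HDAC3 peaks and 0 of 86 genes with 10 or more, for which 3 counts would be a share of 3.49% and the exact upper limit is 4.20%. This order has 2 parts that the counts do not separate. A gene with more peaks has more positions at which SMRT can be called, but single HDAC3 peaks were also less often paired (52.1%, 50.3 to 53.8) than those of genes with 10 or more (66.5%, 63.5 to 69.3). Genes with more HDAC3 peaks also had larger territories, the stretch of chromosome nearest to their start sites, with medians of 59.7 kb for 1 peak and 422 kb for 10 or more.

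Genes with HDAC3 and no SMRT that had the most peaks belonged to varied functions, and in the leading 3 every peak lay at least 66092 bp from SMRT (the least was at Man2a1). Ptprj (chr2:90429754-90580647, minus strand), a receptor tyrosine phosphatase, had 5 HDAC3 peaks, all in introns, and its nearest SMRT peak lay 294503 bp away. Trio (chr15:27730651-28025848, minus strand), a guanine nucleotide exchange factor, also had 5 peaks in introns, with SMRT at least 230753 bp away. Man2a1 (chr17:64600736-64755110, plus strand), a Golgi mannosidase that trims N-glycans, had 5 peaks, of which 1 was intergenic, 3 intronic and 1 in a coding exon. These 3 genes were the only ones with 5 HDAC3 peaks and no SMRT peak. Pptc7, a mitochondrial protein phosphatase, Rad54l2, a helicase that binds the androgen receptor, Tarbp1, an RNA methyltransferase, and Ccdc112 had 4 each. Spryd3, Mpzl2, a cell adhesion protein, and Tuba8, an alpha tubulin, had 3 each. In Mpzl2 all 3 lay within 1 kb of a start site, 816 and 40 bp upstream and 530 bp downstream of one.

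Genes with SMRT and no HDAC3 had at most 2 peaks. Afp (chr5:90490737-90508907, plus strand), which encodes the fetal plasma protein alpha-fetoprotein, had SMRT 13460 and 6595 bp upstream of its TSS, and the nearest HDAC3 peak to the closer one was 33935 bp away. P4hb, the protein disulfide isomerase of the endoplasmic reticulum, had SMRT 1564 bp downstream and 3610 bp upstream of a TSS. Per2 (chr1:91415982-91459324, minus strand), a repressor of the circadian clock, had SMRT in its first kilobases, 3306 and 2640 bp downstream of the TSS, with HDAC3 over 35 kb away (35188 and 35854 bp). Mup3, a major urinary protein, and Aldh5a1, which degrades the GABA product succinic semialdehyde, also had 2. Mup genes are near-identical copies, and the alignment kept uniquely placed reads, so which copy carried the Mup3 peaks is uncertain. The other named genes with 2 SMRT peaks were Rsg1, Clec1a, Mybphl, Arfgap2, which acts in COPI vesicle transport, and Ehmt1, a histone H3 lysine 9 methyltransferase. Arfgap2 and Ehmt1 each had 1 of these in the promoter, 123 and 744 bp upstream of a TSS.

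The most pairs were found at Pik3r1 and Tbl1xr1. Pik3r1, the regulatory subunit of phosphoinositide 3-kinase, had 23 SMRT and 23 HDAC3 peaks, of which 17 formed pairs. Tbl1xr1, which encodes a core subunit of the SMRT and NCoR complexes, had 15 pairs, and Irs2, an insulin receptor substrate, had 14. Pairs also numbered 14 at Zmiz1, a transcriptional coregulator, 13 at the transcription factor gene Myc, and 12 each at Sik1, a kinase that restrains CREB coactivators, Hes1, a Notch target, and Foxo1, which insulin excludes from the nucleus. Sik1 was paired almost throughout, with 12 SMRT and 13 HDAC3 peaks, while Myc had 20 HDAC3 and 15 SMRT peaks. Territories differed widely, from 178 kb at Sik1 to 2227 kb at Tbl1xr1, so these counts are not per length.

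Some genes that held both proteins had a large excess of HDAC3. Elovl6 (chr3:129532355-129638495, plus strand), a fatty acid elongase of lipogenesis, had 13 HDAC3 and 6 SMRT peaks, with every SMRT peak paired, one of the pairs being in the promoter at 185 bp (HDAC3) and 190 bp (SMRT) upstream. Akap1, which anchors protein kinase A at mitochondria, had 7 HDAC3 peaks and 1 SMRT peak. The single pair lay 7889 bp (HDAC3) and 7842 bp (SMRT) upstream of the 5′ end of the gene. HDAC3 without SMRT lay 301 bp upstream of another Akap1 TSS, while the HDAC3 peak closest to the 5′ end was 0.568 kb downstream of that end. The excess was 7 at Elovl6 and also at the proprotein convertase gene Pcsk5 (11 HDAC3, 4 SMRT), the BCL6 corepressor gene Bcor (18 and 11) and Sox9 (20 and 13), a transcription factor of bile duct cells.

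Excesses of SMRT were smaller. Cfhr2, a complement factor H-related gene, had 6 SMRT and 2 HDAC3 peaks, and Cyp2c50, a drug-metabolising cytochrome P450, had 4 SMRT peaks and 1 HDAC3 peak. SMRT without HDAC3 stood at the Cyp2c50 promoter, 88 bp upstream. The only pair lay 1215 bp (HDAC3) and 1040 bp (SMRT) upstream with its centres 175 bp apart. Cfhr2 and Cyp2c50 belong to clusters of similar copies, so the assignment of reads among copies is uncertain there. Tcf7l2, the effector of Wnt signalling, had 9 SMRT and 6 HDAC3 peaks, and so did Ext1, which builds heparan sulfate. Alcam, an adhesion molecule (6 and 3), and Rbfox1, a splicing factor (5 and 2), had the same excess of 3.

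**Figure D2:**
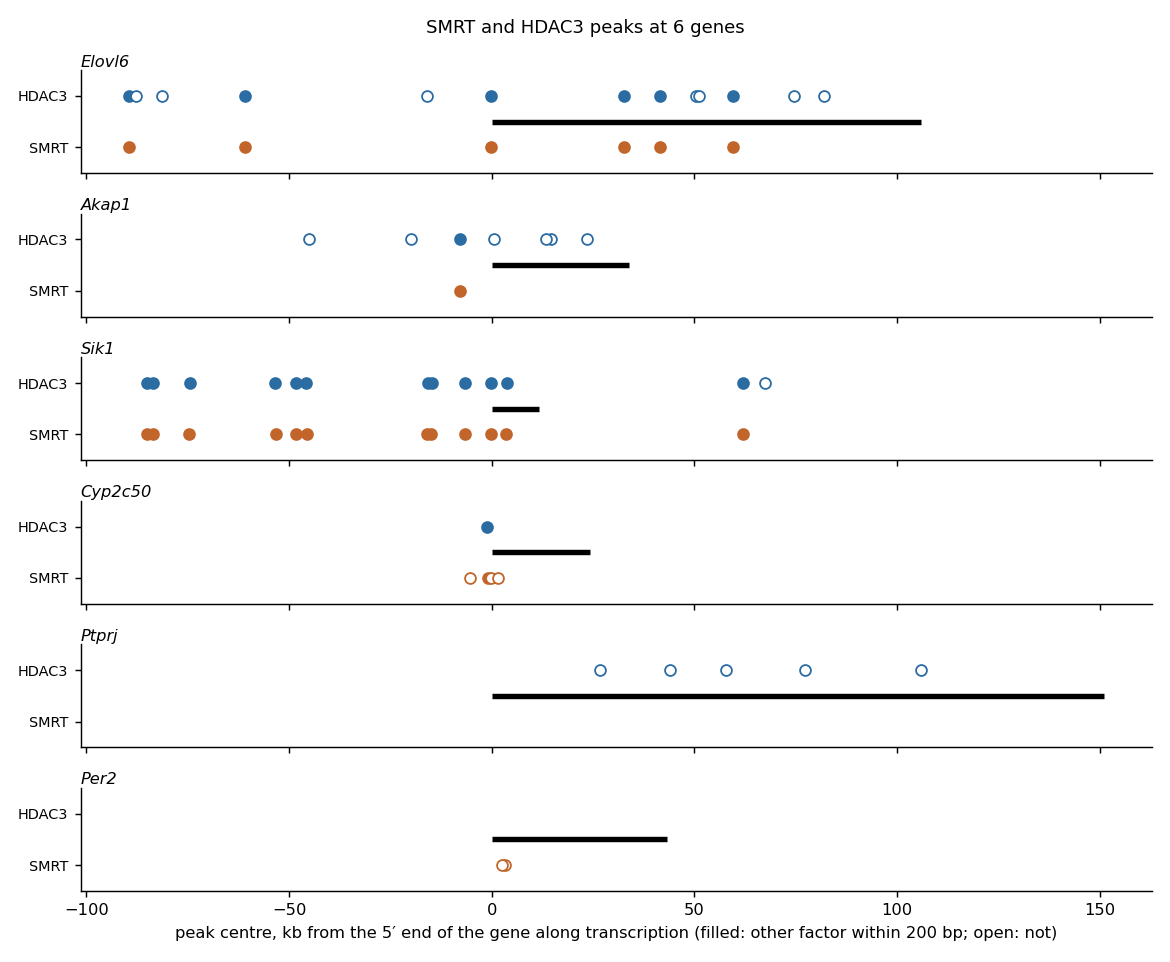
Peak centres at 6 genes by distance from the 5′ end of the gene along transcription (x axis, kb), with HDAC3 above and SMRT below the gene body (black bar); filled circles had the other protein within 200 bp and open circles did not. Open HDAC3 circles lay both upstream of Elovl6 and within it and surrounded the single pair of Akap1, Sik1 had 12 pairs and 1 open circle, and Ptprj and Per2 had open circles of 1 protein.

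The genes of the complex and of BCL6 were themselves unevenly covered. Bcl6 had 7 SMRT and 8 HDAC3 peaks with 5 pairs, all upstream of its TSS, the nearest pair at 7724 bp (HDAC3) and 7752 bp (SMRT). That pair, with centres 28 bp apart, held a BCL6/STAT motif in both windows. These windows overlap for most of their length, so the match can be the same one. The motif was as frequent over all HDAC3 peaks with SMRT (7.97%) as in windows placed every 50 kb along the genome (7.62%), so a match at 1 pair does not show BCL6 binding. Ncor1, the gene of NCoR, had 2 HDAC3 peaks in introns with the nearest SMRT peak 78400 bp from the closer one, and Hdac3 had no peak of either protein. Of 26 genes of corepressors and deacetylases, 10 held both proteins, Ncor1 was the only one with HDAC3 and no SMRT, and 15 held none, among them Hdac1, Hdac2, Gps2, Sirt1 and Kdm1a.

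Metabolic gene lists were mostly of genes with both proteins. Counts are read against the shares over all genes given above (21.8% both, 7.43% HDAC3 and no SMRT, 1.79% SMRT and no HDAC3), with no test. Of 30 genes of fatty acid oxidation and ketone body synthesis, 24 held both (80.0%), led by the peroxisomal genes Crot and Abcd3 and by Eci2 with 5 pairs each. Acadvl and Echs1, which act in mitochondrial beta-oxidation, held HDAC3 and no SMRT, in the latter 95 bp upstream of the TSS. Hadha, the alpha subunit of the trifunctional protein, held 1 SMRT peak 2994 bp downstream and no HDAC3. HDAC3 peaks of this list were paired with SMRT in 59 of 79 cases (74.7%, 63.6 to 83.8). The 27 lipid genes that the study named from these livers, which are no independent sample, counted 23 with both, Acadvl with HDAC3 and no SMRT, and 3 without a peak, among them Ucp2 and Acot2. Acot2 had a territory of 12.3 kb against a median of 47 kb over all genes, while Acot1 held 4 SMRT and 6 HDAC3 peaks. The part of the nearest-TSS rule in these counts was not tested.

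Fatty acid synthesis genes held both proteins or none. Of 24 genes of fatty acid and triglyceride synthesis, 21 held both (87.5%) and none held 1 protein, and the desaturase gene Scd1 had 4 pairs with 6 HDAC3 peaks while Elovl5 and Mlxipl, which encodes the carbohydrate response factor ChREBP, had every peak paired (6 and 5 pairs). Of 20 genes of cholesterol synthesis and LDL uptake, 11 held both, including Hmgcs1 with 3 pairs, and 7 held none. Sqle (3 peaks) and Cyp51 (1 peak), which act on squalene and on lanosterol, held HDAC3 and no SMRT.

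Insulin signalling divided by gene. Of 22 genes, 12 held both proteins (54.5%), and beside Pik3r1, Irs2 and Foxo1 these included Ptpn1, a phosphatase of the insulin receptor, with 6 pairs. HDAC3 without SMRT was found at 5 (22.7%), among them Irs1, with 1 peak 146 bp upstream of its TSS, Akt2, with peaks 1498 bp downstream and 827 bp upstream, Tsc1 with 2, and Pik3ca with 1. Genes without a peak were 18.2% of the insulin list against 69% of all genes. The share of HDAC3 without SMRT over all genes (7.43%) is therefore not a like comparison. Gsk3b, a kinase that inhibits glycogen synthase, was the only gene of the list with SMRT (2 peaks) and no HDAC3. The receptor substrate genes Irs1 and Irs2 thus stood in different classes, as did the catalytic and regulatory subunit genes Pik3ca and Pik3r1. These genes also differed in peak number and territory. Irs1 and Pik3ca had 1 HDAC3 peak each, in 41.7 and 82.6 kb, whereas Irs2 had 17 in 520 kb and Pik3r1 had 23 in 968 kb. The part of peak number in these classes was not tested.

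Glucose production genes mostly held both proteins. Of 22 genes of gluconeogenesis and glucose storage, 16 held both (72.7%), and 61 of their 78 HDAC3 peaks (78.2%, 67.4 to 86.8) were paired. Ppp1r3b, a glycogen-targeting phosphatase subunit, had 11 SMRT and 9 HDAC3 peaks with 9 pairs, and G6pc, the glucose-6-phosphatase gene, had 6 pairs. Crtc2, Pfkfb1 and Gckr held 1 HDAC3 peak each and no SMRT.

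The clock genes gave examples of all classes. Of 19 genes, 13 held both, with 10 pairs at Rora and 6 at Bhlhe40, a repressor of clock genes. Per2 held SMRT and no HDAC3, whereas its paralog Per1 held HDAC3 1793 bp downstream of a TSS with the nearest SMRT peak 231904 bp away. Nr1d2, which encodes REV-ERB beta, a receptor that recruits HDAC3 through NCoR, held 1 HDAC3 peak 761 bp downstream and no SMRT. Ciart, Per3 and Dbp held none.

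Transcription factor genes of hepatocytes were nearly all occupied. Both proteins were found at 21 of 24 (87.5%), with 10 pairs at Foxa2 and 8 at Onecut1. Of the others, 2 held HDAC3 and no SMRT, among them Cebpg. Of 48 nuclear receptor genes, 33 held both (68.8%), led by Nr2f2 with 11 pairs, Rora, and Ppara, the fasting receptor for fatty acids, with 9. Nr2e3 was a second receptor gene beside Nr1d2 with HDAC3 and no SMRT, and Nr4a3 had SMRT and no HDAC3. Of 14 genes of the growth hormone and STAT5 axis, 13 held both, with 9 pairs at Prlr, and Jak2 held none. The hepatocyte factor, nuclear receptor and growth hormone lists had large territories, with medians of 127, 123 and 150 kb against 47 kb over all genes. The part of territory in these counts was not tested.

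SMRT without HDAC3 made up 10% of the genes of the secreted protein and bile acid lists, which is 4 and 2 genes. Genes without a peak were 7.5% and 10% of these lists against 69% of all genes, so the share over all genes (1.79%) is not a like comparison. Of 40 plasma protein genes, 29 held both, 4 held SMRT and no HDAC3, and 4 held HDAC3 and no SMRT. Apoc3, an inhibitor of lipoprotein lipase, had SMRT 118 bp upstream of its TSS with HDAC3 19498 bp away, whereas the fibrinogen gene Fga had HDAC3 43 bp upstream with SMRT 13080 bp away. Of 20 genes of bile acid synthesis and transport, 16 held both, with 5 pairs at Cyp7a1, the rate-limiting enzyme. Slc27a5, which activates bile acids, and Fgfr4, the receptor that represses Cyp7a1, held SMRT and no HDAC3, and no gene of the list held HDAC3 without SMRT.

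Of 25 genes of the urea cycle and amino acid breakdown, 18 held both, and Otc and Slc25a15, which act side by side in ornithine handling, held HDAC3 and no SMRT. Among 29 immediate early and stress genes, entered as 30 records because Ddit3, which had no peak, has a pair of gene identifiers, 22 held both, with 13 pairs at Myc and 11 at Gadd45a. Btg2, an antiproliferative gene, had 3 HDAC3 peaks and no SMRT, 1 of them 82 bp upstream, and Fosb had 2. Of 58 cytochrome P450 genes of families 1 to 3, 35 held both, 6 HDAC3 and no SMRT, and 3 SMRT and no HDAC3. Of 56 conjugation enzyme genes, the corresponding counts were 29, 7 and 3.

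Housekeeping gene lists were mostly of genes without a peak. Both proteins were found at 13 of 80 cytosolic ribosomal protein genes (16.3%), 8 of 77 mitochondrial ribosomal protein genes (10.4%), and 7 of 81 oxidative phosphorylation genes (8.64%). HDAC3 without SMRT was about as frequent in the last list as both together, at 9 genes (11.1%), and its HDAC3 peaks were paired in 9 of 20 cases (45.0%, 23.1 to 68.5). These genes have small territories, with medians of 19.4, 27.2 and 17.5 kb against 47.0 kb over all genes, and the part of territory in these counts was not tested. The plasma protein genes had a median of 33.5 kb. Of 37 proteasome genes, 6 held both, 3 HDAC3 and no SMRT, and 4 (10.8%) SMRT and no HDAC3. Of 1420 olfactory and vomeronasal receptor genes, which liver does not use, 1400 held no peak. The ribosomal gene with the most pairs, Rplp1 with 9, had 8 of them over 70 kb from its start sites, so the nearest gene need not be the one that such peaks act on.

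**Figure D3:**
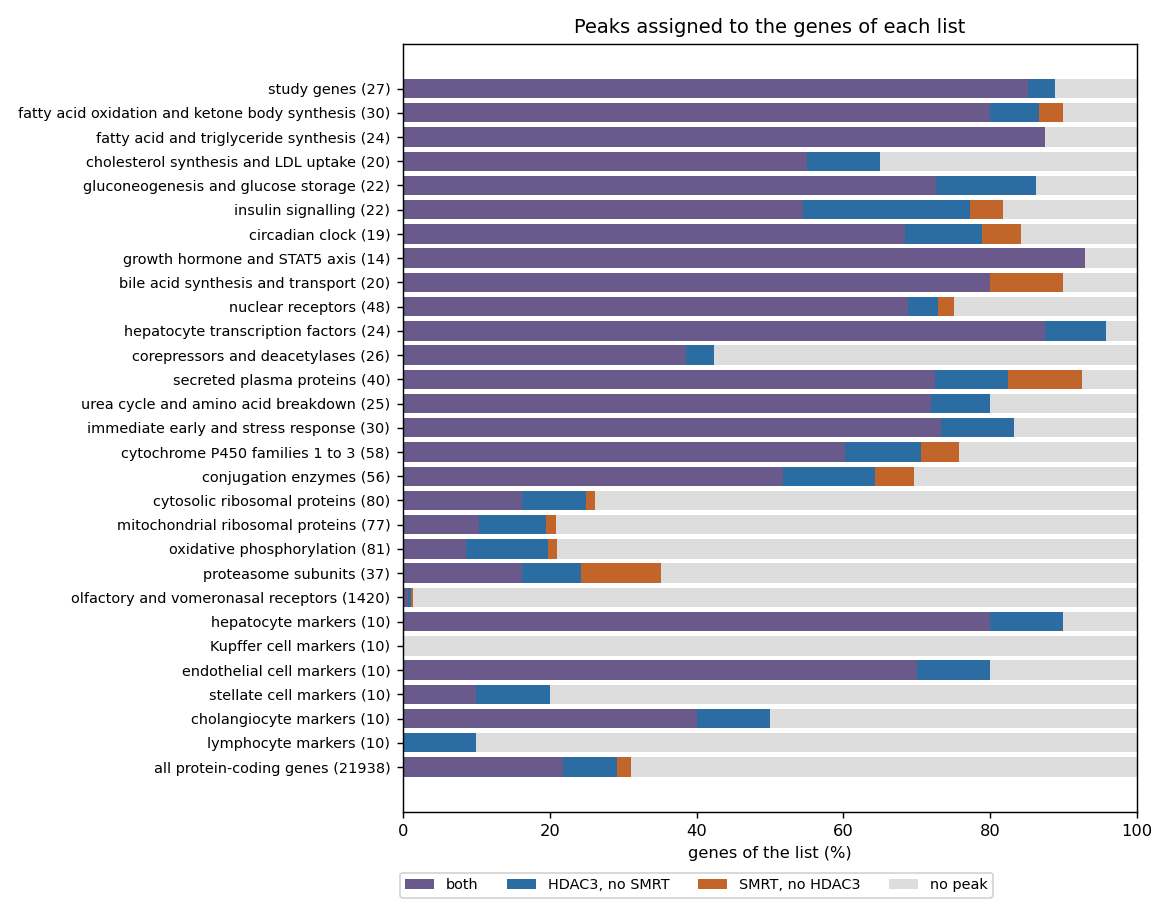
Share of the genes of each list (x axis, %; number of genes in parentheses) that held both proteins, HDAC3 and no SMRT, SMRT and no HDAC3, or no peak, with all 21938 protein-coding genes at the bottom. Metabolic and hepatocyte lists were mainly of genes with both, and the ribosomal, oxidative phosphorylation, proteasome, and olfactory and vomeronasal receptor lists mainly of genes without a peak.

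The labelled tissue was checked against cell type markers, although binding does not measure expression. Of 10 hepatocyte markers, 8 held both proteins, Asgr1 held HDAC3 and no SMRT, and Serpina1c held none. All 10 Kupffer cell markers and 9 of 10 lymphocyte markers held none, Cd4 having 2 HDAC3 peaks. Endothelial markers counted 7 of 10 with both, cholangiocyte markers 4 and stellate cell markers 1. The endothelial count was near the hepatocyte count, so these counts do not identify the tissue. Median territories were 58.4 kb for hepatocyte, 113 kb for endothelial, 61.2 kb for Kupffer cell and 24.8 kb for lymphocyte markers. Their part in the counts was not tested.

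HDAC3 peaks without SMRT lay in promoters more often than those with SMRT. Taking a promoter as 1000 bp upstream to 100 bp downstream of a protein-coding TSS, 645 of 5636 HDAC3 peaks without SMRT lay in one (11.4%, 10.6 to 12.3) against 512 of 8826 with SMRT (5.80%, 5.32 to 6.31), which gave an odds ratio of 2.10 (p = 8.40e-33, two-sided Fisher's exact test with Benjamini-Hochberg adjustment over 3 tests). Among unaccompanied peaks, HDAC3 exceeded SMRT, of which 131 of 1828 lay in promoters (7.17%, 6.03 to 8.45; odds ratio 1.67, adjusted p = 1.30e-07). This difference was lost and changed direction within windows of 40 to 55% GC (odds ratio 0.889, adjusted p = 0.444), where that between HDAC3 classes was smaller and still passed (1.37, adjusted p = 0.00406). SMRT without HDAC3 also exceeded SMRT with HDAC3 (5.90%; odds ratio 1.23, adjusted p = 0.0417), by more within windows of 40 to 55% GC (1.52, adjusted p = 0.00755), but with 1 peak per gene and class, the nearest to the TSS, the direction turned (0.752, adjusted p = 0.00509). Positions every 50 kb along the genome lay in promoters in 1.31% of 52935 cases. The tests treat each peak as independent.

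The promoter share was highest where the whole gene lacked SMRT. It was 19.1% (17.3 to 20.9) of 1914 unaccompanied HDAC3 peaks in genes without SMRT and 7.52% (6.70 to 8.42) of 3722 in genes with SMRT elsewhere. For SMRT the corresponding shares were 10.6% (7.81 to 14.0) of 415 and 6.16% (4.96 to 7.54) of 1413. Promoter HDAC3 peaks were present in 364 of the 1629 genes without SMRT (22.3%) and in 15.9% of the 4782 genes with both. Genes with HDAC3 and no SMRT had smaller territories (median 59.4 kb) than genes with both (95.5 kb), and their peaks lay nearer to start sites (median 8930 bp against 22565 bp). Introns outside promoters held 52.2% (50.9 to 53.5) of HDAC3 peaks without SMRT and 54.2% (53.2 to 55.3) of those with SMRT.

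**Figure D4:**
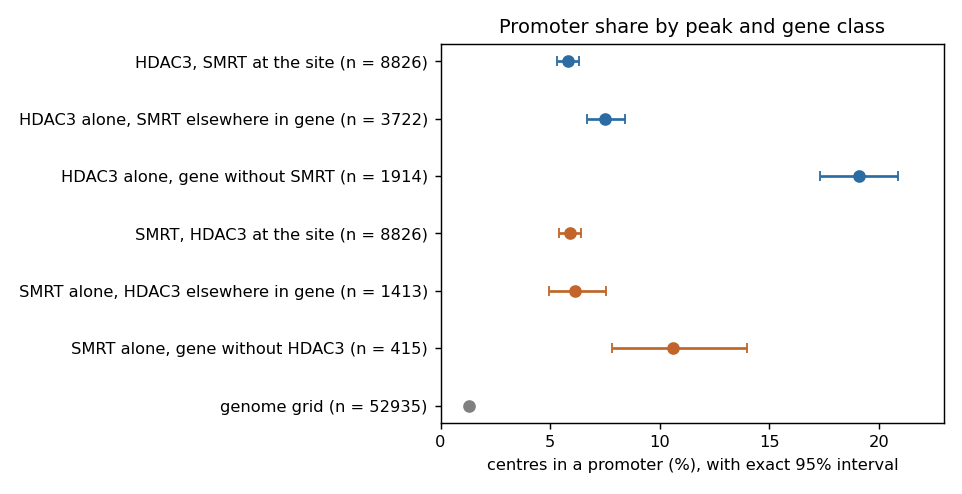
Share of peak centres in a promoter (x axis, %) by peak class, with exact 95% binomial intervals; the number of peaks is in parentheses and the grey point is the grid of positions every 50 kb. HDAC3 peaks of genes without SMRT stood at 19.1%, and the other classes lay between 5.80% and 10.6%. In the labels, alone refers to SMRT and HDAC3 only, as NCoR was not used.

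HDAC3 peaks without SMRT were richer in CpG. Windows of 200 bp with at least 50% GC and an observed to expected CpG ratio of at least 0.6 made up 10.5% (9.66 to 11.3) of HDAC3 peaks without SMRT and 3.49% (3.12 to 3.89) of those with SMRT (odds ratio 3.23, Fisher's exact test, p = 2.25e-62). The difference remained outside promoters (odds ratio 2.37, Fisher's exact test, p = 9.50e-16). For SMRT peaks the shares were 4.70% (3.78 to 5.78) without and 3.44% (3.07 to 3.85) with HDAC3 (odds ratio 1.38, Fisher's exact test, p = 0.0112, unadjusted and added after seeing the data). The median GC of SMRT peaks without HDAC3 was 43.5%, against 47.0% for pairs and 49% for HDAC3 without SMRT.

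C/EBP, FOX, HNF6/CUX2 and GRE motifs were more frequent where HDAC3 had SMRT, and SP/KLF, ETS/ELK, CRE and CTCF motifs where it had not. Of 18 motifs, 4 were more frequent in HDAC3 peaks with SMRT and 4 in those without (Fisher's exact test, two-sided, adjusted over 36 tests). C/EBP was found in 24.7% of windows with SMRT and 18.5% without (odds ratio 1.45, adjusted p = 2.38e-17), and in 9.52% of grid windows. FOX (TGTTTAC), bound by FOXA pioneer factors, was found in 9.90% and 7.24% (odds ratio 1.41, adjusted p = 3.88e-07). HNF6/CUX2 (TATNGATC) was found in 3.33% and 2.11% (1.60, adjusted p = 7.76e-05). These 3 differences also passed within windows of 40 to 55% GC, with odds ratios of 1.36, 1.35 and 1.45, whereas that of GRE (8.67% and 6.80%) did not (1.13, adjusted p = 0.380). With the first peak per gene and class, HNF6/CUX2 did not pass (1.34, adjusted p = 0.118). Grid windows held FOX in 2.86%, HNF6/CUX2 in 1.35% and GRE in 6.61%. The HNF4 half-site (CAAAGTCCA), bound by another hepatocyte factor, did not pass, at 2.21% with and 2.15% without SMRT (odds ratio 1.03, adjusted p = 0.952).

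In HDAC3 peaks without SMRT, SP/KLF was found in 10.2% of windows against 5.47% (odds ratio with over without 0.511, adjusted p = 4.60e-24). ETS/ELK (CCGGAAGT) was found in 0.816% against 0.238% (0.290, adjusted p = 7.05e-06), CRE (TGACGTCA), bound by CREB, in 0.798% against 0.363% (0.452, adjusted p = 0.00272), and CTCF in 1.26% against 0.748% (0.591, adjusted p = 0.0105). Grid windows held SP/KLF in 2%, ETS/ELK in 0.134%, CRE in 0.128% and CTCF in 1.04%, so the CTCF share of peaks without SMRT was near that of the grid. Among peaks outside promoters, ETS/ELK (0.433, adjusted p = 0.098) and CRE (0.685, adjusted p = 0.492) did not pass by the same Fisher's exact test. SP/KLF (0.671, adjusted p = 1.47e-05) and CTCF (0.588, adjusted p = 0.0161) still passed there. None of the 4 passed within windows of 40 to 55% GC, which were 10209 of the 14462. There the odds ratios of SP/KLF, ETS/ELK and CRE were nearer to 1 (0.833, 0.896 and 0.796; adjusted p = 0.410, 0.974 and 0.901), while that of CTCF kept its size (0.608, adjusted p = 0.157). NRF1 (TGCGCATGC) did not pass in all windows either, at 0.213% without and 0.125% with SMRT (adjusted p = 0.388). SP/KLF was found in 14.6% (13.1 to 16.3) of HDAC3 peaks of genes without SMRT and 7.90% (7.05 to 8.81) of unaccompanied HDAC3 peaks of genes with SMRT elsewhere. No difference was detected for the BCL6/STAT motif, at 7.97% with and 8.09% without SMRT (adjusted p = 0.952), and grid windows held it in 7.62%. A string this common in the grid cannot decide where BCL6 was bound. By ChIP-seq the study reported extensive overlap of BCL6 sites with those of SMRT and HDAC3, which was not examined here.

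SMRT peaks without HDAC3 were poor in the RORE. It was found in 57 of 1828 windows (3.12%, 2.37 to 4.02) against 5.95% (5.46 to 6.46) of SMRT peaks with HDAC3 (odds ratio with over without 1.97, adjusted p = 2.83e-06) and 1.97% of grid windows. HDAC3 peaks with and without SMRT both stood at 5.94%. The difference between SMRT classes had about the same size within windows of 40 to 55% GC (odds ratio 2.0, adjusted p = 0.000545), and the share was 3.13% in genes without HDAC3 and 3.11% in genes with HDAC3 elsewhere. HNF6/CUX2 was the only motif more frequent in SMRT peaks without HDAC3 (4.81% against 3.50%, adjusted p = 0.0351), and within the same GC range its odds ratio was 0.919 (adjusted p = 0.947).

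**Figure D5:**
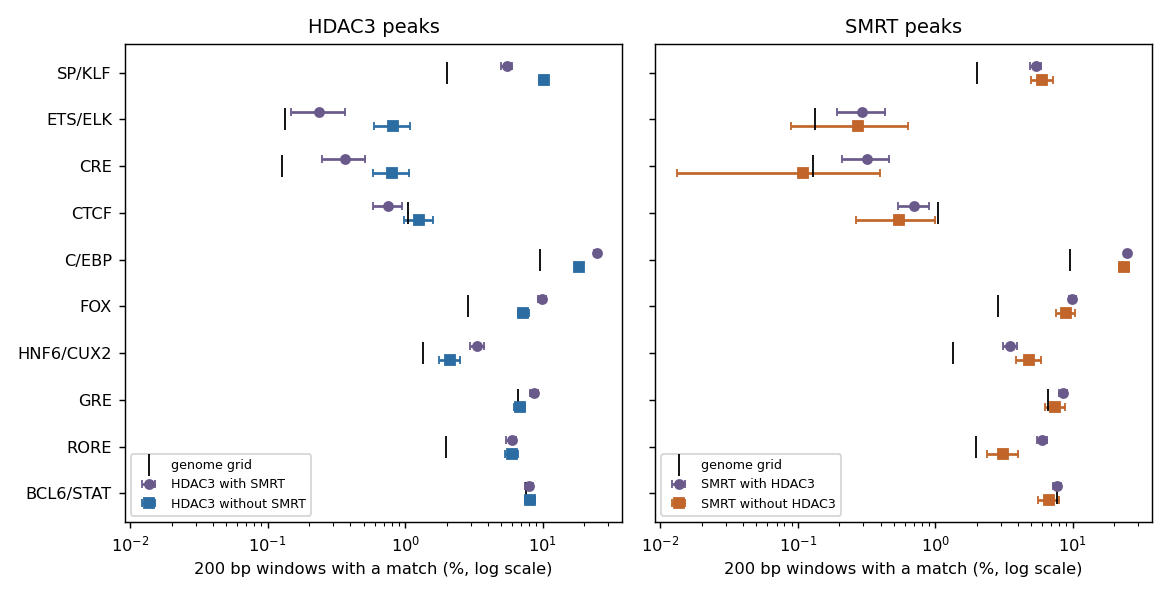
Share of 200 bp windows with a match to each of 10 motifs (x axis, log scale, %) in HDAC3 peaks (left) and SMRT peaks (right), with (circles) and without (squares) the other protein, exact 95% intervals, and the genome grid as a vertical bar. SP/KLF, ETS/ELK, CRE and CTCF were higher in HDAC3 peaks without SMRT, C/EBP, FOX, HNF6/CUX2 and GRE in those with SMRT, and RORE was lower in SMRT peaks without HDAC3.

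Within pairs no fixed order of the proteins along the gene was detected. The centres of all pairs lay a median of 25 bp apart, with 80.7% within 50 bp. Such offsets are small against the 212 bp peaks, so the split cannot decide the order. Of 510 pairs with both centres in a promoter, 506 had different centres, and HDAC3 lay downstream of SMRT in 252 (49.8%, 45.4 to 54.2; exact binomial test, two-sided, p = 0.965). Motif matches that lay inside the windows of both centres were nearer to SMRT more often for 8 of 16 motifs and nearer to HDAC3 for the other 8. The C/EBP matches lay at a median of 33.5 bp from either centre, the RORE matches at 41 bp from the SMRT and 39 bp from the HDAC3 centre, and the AP-1 (TGANTCA) matches at 42 and 45 bp.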

How the data were processed

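Livers of ad libitum fed male Bcl6 fl/fl mice were profiled by ChIP-seq for SMRT and for HDAC3, with 3 libraries each. Per the labels, the authors used Bowtie, HOMER, DESeq2 and mm10. In the study's methods, the authors aligned single-end reads of 75 bp uniquely, called peaks with HOMER on pooled replicates against input, and kept those past 2-fold and a false discovery rate of 0.05 by DESeq2 on single libraries. The deposited lists hold chromosome, start and end positions and no height, score or p-value; library depth is not given in the sources used here. Other samples and the NCoR list were not used.

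Here, centres, nearest start sites of protein-coding transcripts (GENCODE M21 basic annotation), locations, and motifs in 200 bp windows of GRCm38 were computed in Python 3 with SciPy. Shares carry exact Clopper-Pearson 95% intervals. Functions were tested on simulated peaks and windows. The members and gene lists were chosen with earlier results of these data known. Named genes were the 10 with the most peaks in each class with 1 protein, the 8 with the most pairs, the 6 with the greatest excess of either protein, the genes Hdac3 and Bcl6, and, in each list, all members with 1 protein (or the 3 with the most peaks where over 6) and up to 4 with the most pairs. Predicted genes (Gm and Rik symbols) were counted and not named. Some of these genes, and 1 sequence, are not reported here. List members without a peak are named beside their counts. The range of 40 to 55% GC was chosen after seeing the data.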

Additional observations from a re-analysis of the deposited data

How the results depend on the processing

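No paired analysis was possible because the peaks were called on replicates merged by factor, which also left no replicate to leave out. A stricter peak threshold could not be run, as no peak carries a score. Of 91 comparisons of the design's results with an alternative, 73 kept their direction and their side of the threshold, or a count within 1.5 times. With centres within 100 bp, 59.1% of HDAC3 peaks had SMRT and 80.3% of SMRT peaks had HDAC3. Genes with both numbered 2289 when peaks over 10 kb from the TSS were left out. Requiring at least 2 peaks left 238 genes with HDAC3 and no SMRT, 25 with SMRT and no HDAC3, and 2264 with both, by construction.

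The promoter odds ratio of SMRT peaks without against with HDAC3 (1.23) was 1.21 with overlap at 400 bp, 1.12 and 1.09 with promoters of 500 and 5000 bp on either side, 1.1 with the first peak per gene and class, none of which passed, and 0.752 in the opposite direction with the peak nearest the TSS. That of HDAC3 without SMRT against SMRT without HDAC3 was 0.889 within windows of 40 to 55% GC. Motifs more frequent in HDAC3 peaks without SMRT numbered 2 in 100 bp windows (SP/KLF and ETS/ELK), 2 outside promoters (SP/KLF and CTCF) and 0 at 40 to 55% GC. Those more frequent in SMRT peaks without HDAC3 numbered 0 at 100 bp overlap, 0 with repeat-masked bases removed and 0 at 40 to 55% GC. The GC range also left fewer windows (10209 HDAC3 and 7385 SMRT), and the cause of these changes was not tested. Of 80 comparisons of single motifs, 13 lost the threshold and none changed direction.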
